A study of Mus musculus with 18 samples.

Results

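The 83 genes described here encode the proteins of the cytosolic ribosome. They are the protein-coding genes whose mouse symbol begins with Rpl or Rps and a digit, or is Rplp0, Rplp1, Rplp2 or Rpsa, leaving out pseudogene symbols and the Rps6k kinases. They were chosen by their mean level over all 18 libraries, which had to reach 10 TPM (a length-corrected share of each library's transcripts, with the same total in every library), so their mean levels are given as a description. Of 55487 genes in the tables, 86 had such a symbol and 83 reached that level, 49 of the large subunit and 34 of the small subunit by symbol. The 3 left out were the paralogs Rpl10l at 0.0 TPM, Rpl3l at 0.14 TPM and Rpl39l at 0.573 TPM. The lowest members inside the limit were Rps19bp1 at 23.3 TPM, Rpl7l1 at 52.2 TPM and Rps27l at 116 TPM. Rps19bp1 encodes a protein that binds Rps19 and is not itself a ribosomal protein, and it stays in because its symbol meets the rule.

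The series measured polyA RNA of regulatory T cells (Treg cells, the Foxp3-dependent subset of CD4+ T cells that restrains immune responses). CD4+Foxp3+ cells were sorted fresh from wild-type mice without treatment. The 6 sites were peripheral blood, bone marrow, the spleen, lymph node, the lung and the liver, each with 3 libraries. Strain, age, the number of animals behind a library and the sorting gate are not given in the sources used here. Nothing there says that the 3 libraries of a site came from separate animals, so a p-value measures the spread between these libraries, which may be technical.

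Each cytosolic ribosome is built from a large and a small subunit, and most ribosomal proteins are needed in equal numbers. Their mRNAs are among the most abundant of a lymphocyte and usually begin with a 5′ terminal oligopyrimidine (TOP) tract. Through this tract their translation is set jointly by the kinase complex mTORC1 and the RNA-binding protein Larp1, while Myc acts on their synthesis. Ribosome biogenesis factors take part in building the ribosome. In T cells, activation and growth raise ribosome production, and quiescence lowers it.

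The promoter windows show what these genes share around their starts. They are RefSeq sequences of build GRCm38.p6, for 63 of the 83 members with 74 annotated starts. A run of 8 or more C or T on the gene's strand, between 20 bases before and 50 bases after the start, was present at 50 of 74 member starts (67.6%) and at 25.4% of all 32851 starts. The letters CCGGAAG, the core recognised by ETS factors, stood on either strand of the 300-base window at 26 of 74 member starts (35.1%) and at 8.9% of all starts. The letters TATAAA lay on either strand in the 50 bases before the start at 1 of 74 (1.4%) and at 3.5%. The windows below belong to genes whose levels are described later. Each spans 50 bases, the first 25 of them before the annotated start, with the longest run of C and T in capitals.
Rplp2, chr7:141447626-141447675, plus strand: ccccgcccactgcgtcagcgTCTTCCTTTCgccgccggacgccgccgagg
Rpl37a, chr1:72711235-72711284, plus strand: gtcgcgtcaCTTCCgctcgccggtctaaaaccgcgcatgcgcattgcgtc
Rpl12, chr2:32961687-32961736, plus strand: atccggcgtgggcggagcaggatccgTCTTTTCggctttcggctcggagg
Rpl41, chr10:128549144-128549193, minus strand: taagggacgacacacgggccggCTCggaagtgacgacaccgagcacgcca
Rpsa, chr9:120127741-120127790, plus strand: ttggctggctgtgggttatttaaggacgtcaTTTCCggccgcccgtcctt
Rpl13a, chr7:45128721-45128770, minus strand: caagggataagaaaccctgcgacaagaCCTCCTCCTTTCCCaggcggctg
Rpl22l1, chr3:28805483-28805532, plus strand: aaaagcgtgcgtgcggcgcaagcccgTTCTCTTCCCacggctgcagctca
Rpl5, chr5:107900503-107900552, plus strand: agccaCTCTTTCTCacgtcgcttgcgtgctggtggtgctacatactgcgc
Rpl39, chrX:37085198-37085247, minus strand: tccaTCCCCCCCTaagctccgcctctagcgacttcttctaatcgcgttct
Rpl10, chrX:74270791-74270840, plus strand: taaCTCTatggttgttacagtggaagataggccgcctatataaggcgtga
The run was 14 bases in Rpl13a, 10 in Rplp2 and Rpl22l1, and 9 in Rpl5 and Rpl39. It was 7 in Rpl12, 5 in Rpl37a and Rpsa, 4 in Rpl10 and 3 in Rpl41, all shorter than 8. In Rpl5 and Rpl39 the run began 20 and 21 bases before the annotated start and also ended before that start. These are matches of letters, not measured start sites.

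The libraries differed between sites in transcripts typical of other cells, which bears on every share below. The TPM of each library add up to a common total, and between 14314 and 19797 genes were above 0. TPM does not keep the sequencing depth, which is therefore unknown. Foxp3 was found in all 18 libraries, at 88.7 ± 3.39 TPM in blood (mean ± SD, n = 3 here and for each site below) and between 139.7 ± 9.03 in spleen and 238.5 ± 2.14 in lymph node elsewhere. The summed TPM of 18 myeloid genes, all 18 of them at 1 TPM or more in blood, bone marrow and spleen, ranged from 27640 to 28410 in blood and from 49390 to 49800 in bone marrow. It ranged from 1762 to 1880 in lung, 728 to 925 in spleen, 227 to 431 in liver, where Cebpe was at 0, and 47.9 to 102 in lymph node. Platelet genes summed to at least 2017 TPM in blood and at most 86.2 elsewhere, erythroid genes to between 10930 and 11980 TPM in liver and at most 6737 elsewhere, and cytotoxic lymphocyte genes to at least 543 TPM in blood and at most 92.5 elsewhere. B cell genes summed to between 500.1 and 627 TPM in spleen, bone marrow and blood and at most 166 in the other sites. Lung epithelium genes reached 223 to 294 TPM in lung and at most 19.8 elsewhere, and hepatocyte genes at most 18.5 in any library. The 20 general T cell genes summed to between 4994 and 5055 TPM in blood, 6409 and 6510 in bone marrow, 6846 and 7023 in lung, 7847 and 8240 in liver, 8491 and 8592 in spleen, and 9628 and 9669 in lymph node. In such bulk libraries, fewer cells of a type and less RNA per cell cannot be told apart.

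Ribosomal protein transcripts made up the smallest share of the library in blood and the largest in spleen. Summed over the 83 genes, the share of all TPM was 16.2% ± 0.222 in blood and 17.6% ± 0.109 in bone marrow. It was 21.01% ± 0.236 in lung, 22.0% ± 0.854 in liver and 24.2% ± 0.012 in lymph node, and 27.3% ± 0.123 in spleen. The 3 libraries of each site stood apart from those of every other site. The narrowest gap was between lung, which reached 21.2%, and liver, which began at 21.3%, and it was smaller than the SD of the liver libraries. The order blood, bone marrow, lung, liver, lymph node, spleen was the same for the 49 large subunit genes alone, from 8.42% to 14.4%, and for the 34 small subunit genes, from 7.76% to 12.9%. The ratio of large to small subunit transcripts ran from 1.08 ± 0.009 in blood to 1.13 ± 0.006 in liver, a narrower span than that of the shares. The blood ratios, from 1.075 to 1.094, still lay below those of all other libraries, the lowest of which was 1.102 in lung. Mitochondrial transcripts, another abundant class, took 9.44% of blood libraries and 4.78% of bone marrow libraries, so the 2 sites with the lowest ribosomal shares differed in this class. With mitochondrial, haemoglobin and immunoglobulin genes and the listed myeloid, platelet and erythroid genes removed, the same order held. It ran from 18.6% in blood and 19.7% in bone marrow to 29.2% in spleen. Other transcripts of those cells stayed in the total. The myeloid total was highest in the 2 sites with the lowest ribosomal share, and its part in that order, like that of the platelet and erythroid genes, was not tested.

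**Figure D1:**
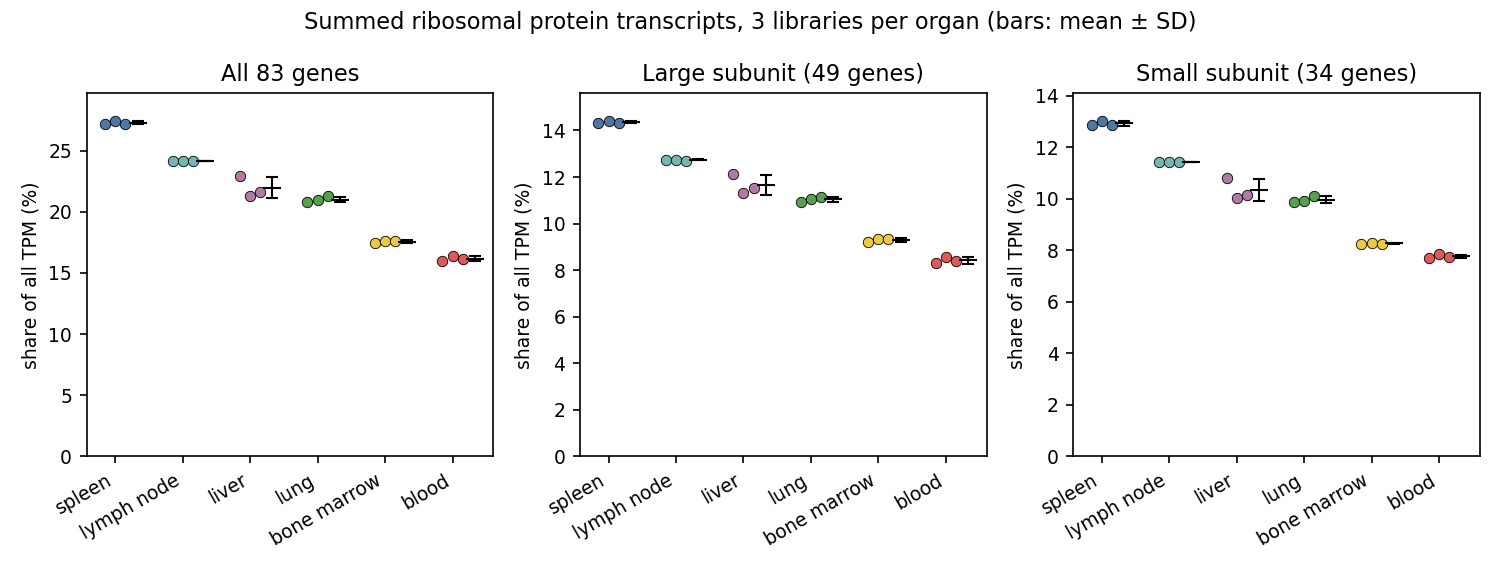
Share of all TPM (percent, axis from 0) taken by the 83 ribosomal protein genes and by the large and small subunit genes, 1 point per library, with mean ± SD of the 3 libraries of each organ. Blood libraries lie between 16.0% and 16.4% for the whole family and spleen libraries between 27.2% and 27.4%. These are shares of a library, and scaling to T cell genes turns the direction between blood and every organ.

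A few of these genes carry much of the total. Among the highest, on the TPM scale that corrects for length, were Rpl13a with a mean of 8654 TPM, Rps27 with 8618, Rps14 with 7066 and Rplp1 with 5514. Rpl13a, a large subunit protein that also takes part in a translational silencing complex in myeloid cells, read 6113, 6659 and 6124 TPM in the 3 blood libraries and 10094, 10362 and 9901 TPM in the 3 spleen libraries. Every spleen library was above every blood library for this gene, but on the T cell scale it was 0.20 higher in blood than in spleen (limma, adjusted p = 0.000825). The 10 most abundant members took 26.4% of the family's TPM in blood and 28.0% in liver. The ratio of the highest to the lowest site mean ran from 1.33 in Rpl10 to 2.57 in Rpl37a. In 65 of the 83 genes the lowest site mean was that of blood (22.2% of all genes tested), in 16 that of bone marrow (6.98%) and in 2 that of liver (23.5%). The highest site mean was that of spleen in 59 (12.1% of all genes tested) and of lymph node in 19 (19.8%). With libraries scaled to the 20 T cell genes this order turned: blood had the highest mean in 57 members (50.3% of all genes) and the lowest in 0 (6.91%), spleen the highest in 24 (4.65%), and lymph node the lowest in 56 (20.8%). As a share of the library, all 3 blood libraries lay below the other 15 in 46 members, which held for 4.79% of all 16694 genes tested. All 3 spleen libraries lay above the other 15 in 53 members, against 2.05% of all genes tested.

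The design asks how Treg cells of the blood differ from those of each organ. On log2(TPM + 1), fitted with limma over all 16694 genes and adjusted by Benjamini and Hochberg's method, 81 of the 83 genes differed among the 6 sites at an adjusted p under 0.05. This F test called 68% of all genes. The 2 not called were Rps27l and Rps19bp1, which are among the 3 lowest members.

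As a share of the library, the family was lower in blood than in each organ, but scaling every library to its 20 T cell genes turned all 5 medians the other way. Against spleen 80 of the 83 genes were lower in blood and 0 higher, with a median log2 fold change of −0.72 as a share and 0.16 on the T cell scale. Of all genes tested, 15.3% were lower in blood than in spleen and 20.1% higher. Against lymph node 77 were lower and 0 higher, with medians of −0.58 and 0.50, beside 21% of all genes lower and 16.4% higher. Against liver 77 were lower and 2 higher, with medians of −0.44 and 0.40, beside 16.1% lower and 23.3% higher. Against lung 76 were lower and 0 higher, with medians of −0.37 and 0.21, beside 17.3% lower and 26.4% higher. Against bone marrow 41 were lower and 7 higher, with medians of −0.11 and 0.33, beside 18.8% lower and 13% higher. At an unadjusted p under 0.05 in limma, the number of members higher in blood was also 0 against spleen, lymph node and lung, and plain empirical Bayes moderation gave 0 there too. The 3 members not called against spleen were Rpl7l1, Rps19bp1 and Rps27l, and against lymph node Rpl22l1, Rpl39 and Rps27a were also not called.

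These 5 comparisons share the 3 blood libraries and are not independent of each other. On the T cell scale the calls were 50 higher and 14 lower against spleen, 83 and 0 against lymph node, 83 and 0 against liver, 66 and 0 against lung, and 74 and 0 against bone marrow. Of all genes tested, 53.7% were then higher and 2.77% lower against spleen, 54.8% and 2.08% against lymph node, 58.6% and 5.02% against liver, 49.1% and 7.91% against lung, and 28.3% and 8.54% against bone marrow. That scaling moved the median of all genes too, to 0.70 against spleen, 0.70 against lymph node, 0.77 against liver, 0.59 against lung and 0.23 against bone marrow. Relative to the median of all genes, the family's median was −0.72 against spleen as a share and −0.54 on the T cell scale. The same differences were −0.43 and −0.19 for lymph node, −0.52 and −0.37 for liver, and −0.49 and −0.37 for lung. For bone marrow they were −0.01 and 0.10, so against that organ the family did not stand clearly below the other genes on either scale. The scaling multiplies a whole library by 1 factor. These differences therefore change between the scales only through the 1 added to each TPM, which damps the shift of low genes. Their change is not read as a result about the family. Scaling to the upper quartile of TPM gave medians of −0.82, −0.54, −0.56, −0.49 and −0.03 in the same order, with 12 members higher and 19 lower against bone marrow. These counts stand without the share of all genes on that scale and show only how the calls move. Which scale reports the content of a Treg cell was not tested.

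**Figure D2:**
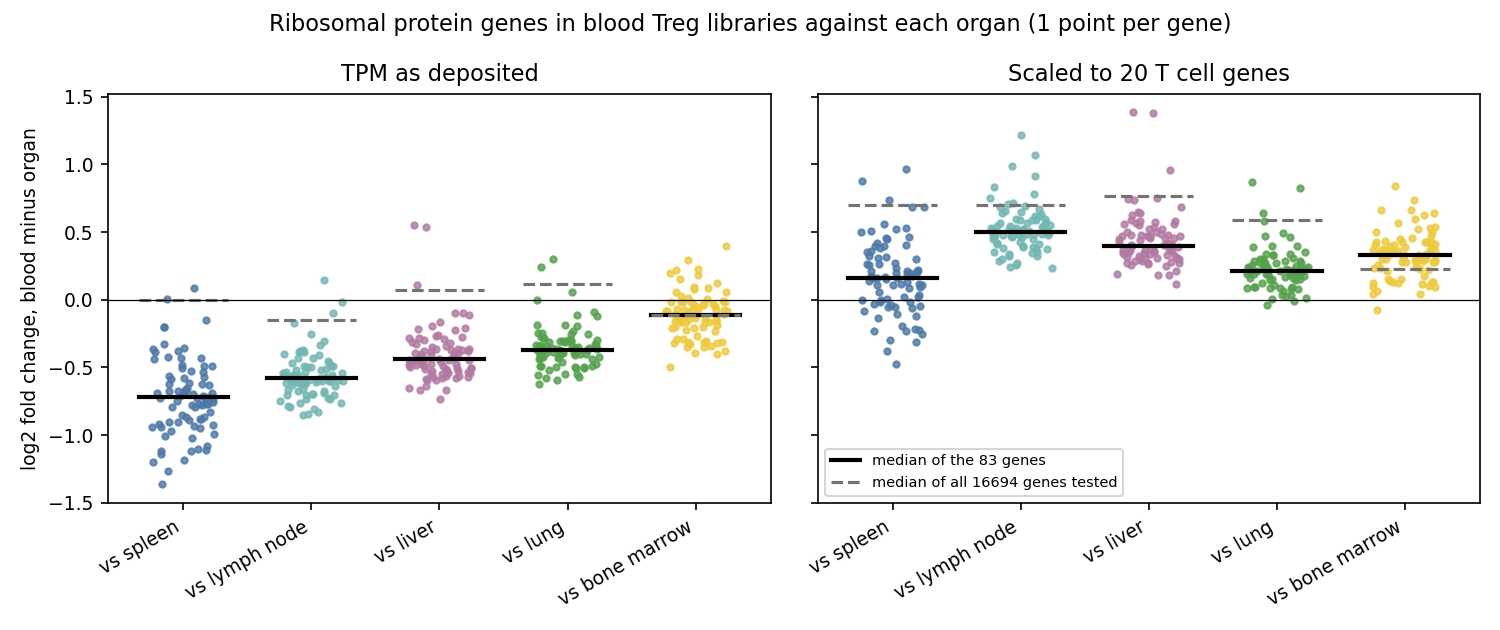
Log2 fold change of each of the 83 genes in blood against 5 organs (y axis, blood minus organ on log2(TPM + 1), 1 point per gene), with TPM as deposited at left and libraries scaled to 20 T cell genes at right. The solid line is the median of the 83 genes and the dashed line the median of all 16694 genes tested. At left the 5 medians of the family lie below 0, at right above 0, while in both panels they lie below the dashed line for spleen, lymph node, liver and lung.

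The lowest values in blood belonged to different proteins in different comparisons. Against spleen they were those of Rpl37a and Rplp2. Rpl37a, a small zinc-binding protein of the large subunit, read 1855, 1941 and 1791 TPM in blood and 4886, 4879 and 4616 TPM in spleen. Its log2 fold change was −1.36 ± 0.04 (SE), with an adjusted p of 1.43e-12 in limma. Rplp2, of the stalk that recruits the elongation factors, read 2064, 2118 and 2084 TPM in blood and 5079, 4879 and 5129.5 TPM in spleen, a change of −1.27 ± 0.04 (adjusted p = 1.18e-12). For both genes the blood and spleen libraries were far apart, and both stayed lower than in spleen on the T cell scale.

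Against lymph node the lowest were Rps2, of the mRNA entry side of the small subunit, and Rpl12, at the base of the stalk. Rps2 read 1802, 1878 and 1904 TPM in blood and 3348.5, 3349 and 3363 TPM in lymph node (−0.85 ± 0.03, adjusted p = 1.3e-11). Rpl12 read 1442, 1537 and 1457 TPM in blood and 2667, 2689.8 and 2589.9 TPM in lymph node, and changed by −0.84 ± 0.05 (adjusted p = 9.79e-10). No blood library of either gene reached a lymph node library, yet on the T cell scale both turned to 0.24 higher in blood. Against liver Rpl41, the shortest of the proteins, read 2515, 2666 and 2582 TPM in blood and 4429.6, 3960.3 and 4511 TPM in liver. It changed by −0.73 ± 0.04 (adjusted p = 8.8e-10), and Rpsa, the laminin receptor protein of the small subunit, by −0.67 ± 0.03 (adjusted p = 2.93e-11). Both turned under the T cell scale, to 0.12 and 0.18 higher in blood. Against lung the lowest were Rpl22l1 at −0.62 ± 0.06 (adjusted p = 3.18e-07) and Rpsa at −0.59 ± 0.03 (adjusted p = 1.11e-10), and on the T cell scale neither was called. Against bone marrow Rps12 changed by −0.40 ± 0.05 (adjusted p = 1.02e-05), which became 0.04 with an adjusted p of 0.601 on the T cell scale. Rps19bp1 had a lower value, −0.50 ± 0.18, but was not called (adjusted p = 0.0501).

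As a share of the library, few members were higher in blood, 7 than in bone marrow and 2 than in liver. Of all genes tested, 13% were higher than in bone marrow and 23.3% than in liver, so members were called higher less often than genes in general. With T cell scaling 74 members were higher than in bone marrow and 83 than in liver, beside the shares of all genes given above. Against bone marrow the 7 higher genes were Rpl10, Rpl22l1, Rpl23, Rpl35a, Rpl39, Rpl5 and Rps27a, a number that became 3 without limma's trend and robust options, 12 with library weights or upper quartile scaling, and 11 without abundant classes. Rps27a encodes ubiquitin fused to a small subunit protein, and read 2445, 2101 and 2250.0 TPM in blood and 1751, 1877 and 1907 TPM in bone marrow, a change of 0.29 ± 0.05 (limma, adjusted p = 0.000218). It was not called against lymph node (−0.10, adjusted p = 0.141), liver (−0.10, adjusted p = 0.117) or lung (−0.09, adjusted p = 0.151). The 2 genes higher than in liver were Rpl10 (0.11, adjusted p = 0.0389) and Rps27l (0.54, adjusted p = 0.0476). These calls lay near the threshold, and their number ranged from 0 to 2 when single libraries were left out and was 0 without the filter on low values, with library weights, without the trend and robust options and with upper quartile scaling. Rpl7l1 read 59.5, 51.6 and 46.8 TPM in blood and 42.1, 23.8 and 43.8 in liver and was not called (0.56, adjusted p = 0.0747). The 41 lower calls against bone marrow became 18 without the trend and robust options, and leaving out bone marrow replicate 3 gave 30.

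Among the 5 organs, spleen had the highest ribosomal protein share in every pair, and bone marrow the lowest. The T cell scale turned this order for lymph node against bone marrow, lung and liver. It also turned bone marrow against liver, and liver against lung. Spleen exceeded bone marrow in 80 genes (median 0.64, 0 lower, with 24.1% of all genes called in either direction), lung in 67 (0.37, 2 lower, 40.8%), liver in 65 (0.32, 2 lower, 31.3%) and lymph node in 45 (0.16, 6 lower, 14.3%). On the T cell scale these 4 medians stayed above 0, at 0.20, 0.07, 0.29 and 0.36, with 48 higher and 4 lower, 36 and 13, 58 and 2, and 62 and 0. Of all genes, 2.47% were then higher and 43.3% lower than in bone marrow, 14.3% and 25.5% than in lung, 15.2% and 14.5% than in liver, and 6.3% and 2.99% than in lymph node. Lymph node exceeded bone marrow in 78 genes (0.44, 0 lower, 22.5%), lung in 65 (0.22, 2 lower, 42.3%) and liver in 44 (0.15, 6 lower, 31.1%), but on the T cell scale these 3 medians turned to −0.20, −0.28 and −0.09. On that scale the calls were 1 higher and 58 lower against bone marrow, 0 and 71 against lung, and 7 and 32 against liver, beside 1.85% and 45.2%, 12.2% and 26.9%, and 10.9% and 13.7% of all genes. Scaling to the upper quartile left 24 higher and 10 lower against lung, and 15 higher and 18 lower against liver. The share of all genes on that scale is not given here, so these counts show only how the calls move. The 6 genes lower in lymph node than in liver were Rpl22l1, Rpl30, Rpl39, Rpl41, Rps14 and Rps23, and Rpl22l1 and Rpl39 were also lower than in lung. Bone marrow was below liver in 71 genes (−0.32, 2 higher, 34.5%) and below lung in 69 (−0.23, 0 higher, 43.5%), where the T cell scale gave 0.09 against liver, with 38 higher and 7 lower (46% and 3.89% of all genes), and −0.09 against lung, with 0 higher and 35 lower (36.6% and 10.8%). Liver exceeded lung in 19 genes (0.07, 0 lower, 34.9%), and on the T cell scale in 0, with 71 lower and a median of −0.20 (11.2% of all genes higher and 26.6% lower). The count for liver against lung also moved with other settings, to 31 without liver replicate 2, 3 with library weights and 2 without the trend and robust options.

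A few genes ran against spleen's high share. Rpl5, which carries the 5S rRNA into the large subunit together with Rpl11, read 1985, 2029 and 1994.5 TPM in spleen, 2355, 2411 and 2403 in lymph node, 2142, 2348 and 2278 in liver and 2226, 2159 and 2063 in lung. All 3 spleen libraries were below those of the other 3 organs. The change was −0.26 ± 0.03 against lymph node (limma, adjusted p = 6.94e-05), −0.17 ± 0.03 against liver (adjusted p = 0.000911) and −0.10 ± 0.03 against lung (adjusted p = 0.0214). Rpl15, Rpl17, Rpl31 and Rpl9 were also lower in spleen than in lymph node. With T cell scaling 0 of the 83 genes were lower in spleen than in lymph node in limma, also at an unadjusted p under 0.05.

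For changes within the family, where a factor common to a whole library drops out, the mean log2(TPM + 1) of the 83 genes was subtracted from each library and the same model was fitted again to all genes. By this construction the members' differences balance around 0. Of the 83 genes, 77 differed among the sites relative to the family, beside 77.4% of all genes tested, so nothing particular to the family is read from it. Without the trend and robust options the count was 42. Those not called included Rpl23a, Rpl37, Rpl6, Rps27rt and Rps3a1. Set against the mean of the other 5 sites, spleen had 32 members higher and 25 lower (51.9% of all genes called), blood 17 and 23 (46.7%), liver 22 and 16 (38.4%), lymph node 18 and 16 (27.7%), bone marrow 13 and 20 (47.4%) and lung 17 and 15 (45.1%). In this fit, genes outside the family carry the family's own shift with its sign reversed. The shares of all genes called are therefore not a like background for the members. Before the subtraction the F test called 68% of all genes, after it 77.4%. Without the trend and robust options 35 of the 57 calls were kept in spleen, 20 of 40 in blood, 12 of 38 in liver, 10 of 34 in lymph node, 13 of 33 in bone marrow and 7 of 32 in lung. Each gene given below as above or below the family kept its call in all 24 alternatives that apply to this fit unless stated.

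**Figure D3:**
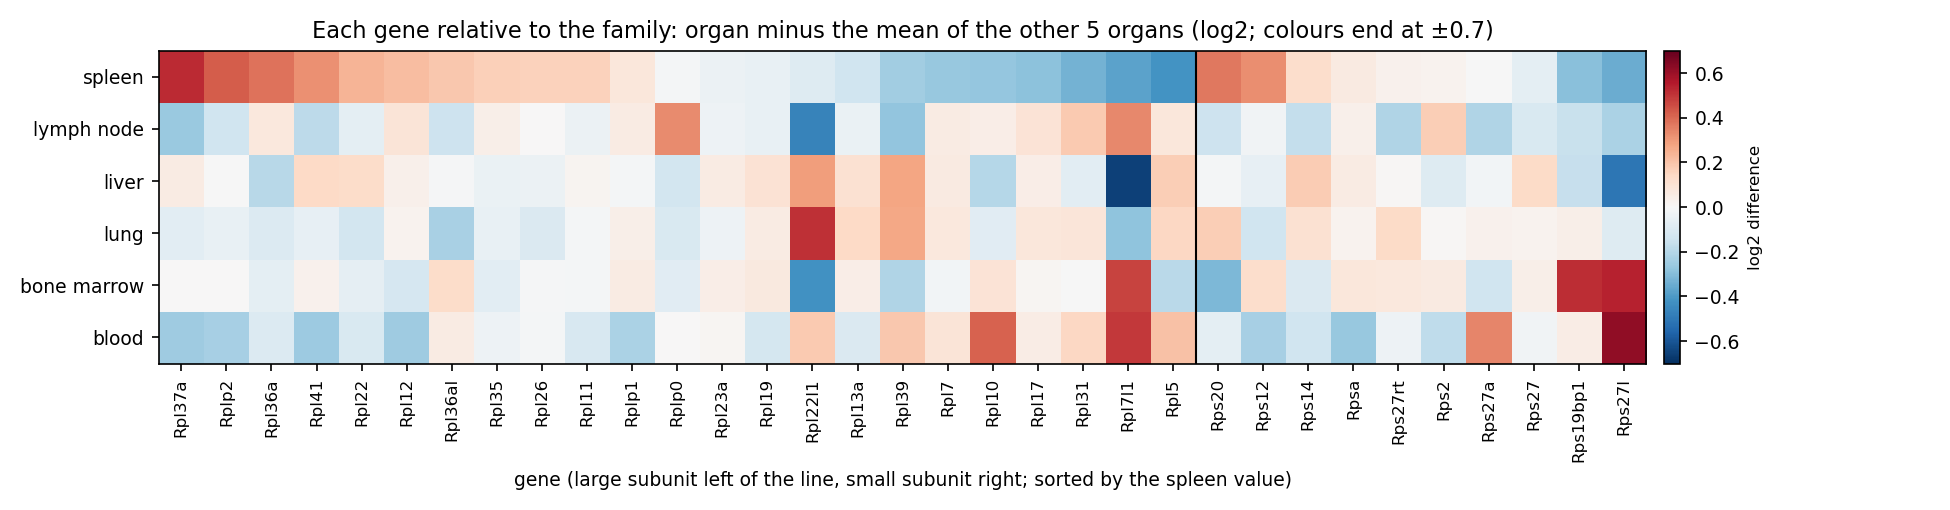
Genes described in the text (columns) relative to the mean of the family, as the log2 difference between an organ and the mean of the other 5 (rows, colour scale from −0.7 to 0.7), with large subunit genes left of the line and small subunit genes right of it. Rpl37a is at 0.52 and Rpl5 at −0.42 in spleen. Rpl22l1 stands out high in lung and low in lymph node and bone marrow.

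Spleen libraries had the most members called relative to the family, 57. Relative to it, Rpl37a was 0.52 ± 0.03 higher than in the other 5 sites (SE, limma, adjusted p = 2.75e-10), Rplp2 0.42 ± 0.03 (adjusted p = 1.4e-08) and Rps20 0.37 ± 0.03 (adjusted p = 1.39e-07). Rps20, at the head of the small subunit, read 2814, 2783 and 2821 TPM in spleen and no more than 1990 TPM in any other library. Rpl41 (0.32 ± 0.03) and Rps12 (0.33 ± 0.04) were also higher. On the other side stood Rpl5 at −0.42 ± 0.04 (adjusted p = 2.35e-07), Rpl31 at −0.33 ± 0.03 (adjusted p = 5.64e-07) and Rpl10 at −0.27 ± 0.04 (adjusted p = 1.67e-05). Several of the genes high in spleen have short transcripts. Among the 27 members with the shortest annotated transcript, 345 to 729 bases, 19 were above 0 relative to the family in spleen, with a median of 0.11. Among the 27 longest, 1049 to 5179 bases, 10 were, with a median of −0.06. Over the 83 genes Spearman's rho with transcript length was −0.26 in spleen and between −0.07 and 0.24 in the other sites, a description across genes that share their libraries. Other features had stronger relations, with rho of 0.44 for coding length in lymph node and −0.33 in spleen, and −0.39 for transcript GC content in blood. The part of transcript length in these differences was not tested.

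In blood, Rpl10 and Rps27a stood above the family. Rpl10, which joins late in large subunit maturation and is needed for the subunits to pair, read 1798, 1916 and 1896 TPM in blood, 1824, 1854 and 1711 in lung and 1681, 1759.7 and 1762 in liver. It read 1698, 1665 and 1680.4 TPM in bone marrow, 1956, 2153 and 2130.1 in spleen and 2246, 2237 and 2206 in lymph node. The ranges of blood and lung overlapped, as did those of lung and liver, while all blood libraries lay above bone marrow and below lymph node. Relative to the family it was 0.41 ± 0.04 in blood (limma, adjusted p = 1.24e-07) and −0.20 ± 0.04 in liver (adjusted p = 0.000511). Rps27a was 0.34 ± 0.04 in blood (adjusted p = 9.31e-07) and −0.21 ± 0.04 in lymph node (adjusted p = 0.000311). Rpl5 was 0.21 ± 0.04 in blood (adjusted p = 0.000267), where its 3 libraries read 1746, 1740.2 and 1746 TPM. Below the family in blood were Rpsa at −0.26 ± 0.02 (adjusted p = 1.3e-07), Rpl41 at −0.25 ± 0.03, Rpl12 at −0.25 ± 0.03, Rpl37a at −0.25 ± 0.03, Rplp2 at −0.23 ± 0.03 and Rps12 at −0.23 ± 0.04. Rpsa read 1883, 2021 and 1996 TPM in blood against 2529.9, 2622 and 2612 in bone marrow, and no blood library reached a bone marrow library as a share, while on the T cell scale the difference was 0.05 and not called (adjusted p = 0.298). The blood and bone marrow libraries both hold high myeloid totals, and the part of other cells in these differences was not tested.

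**Figure D4:**
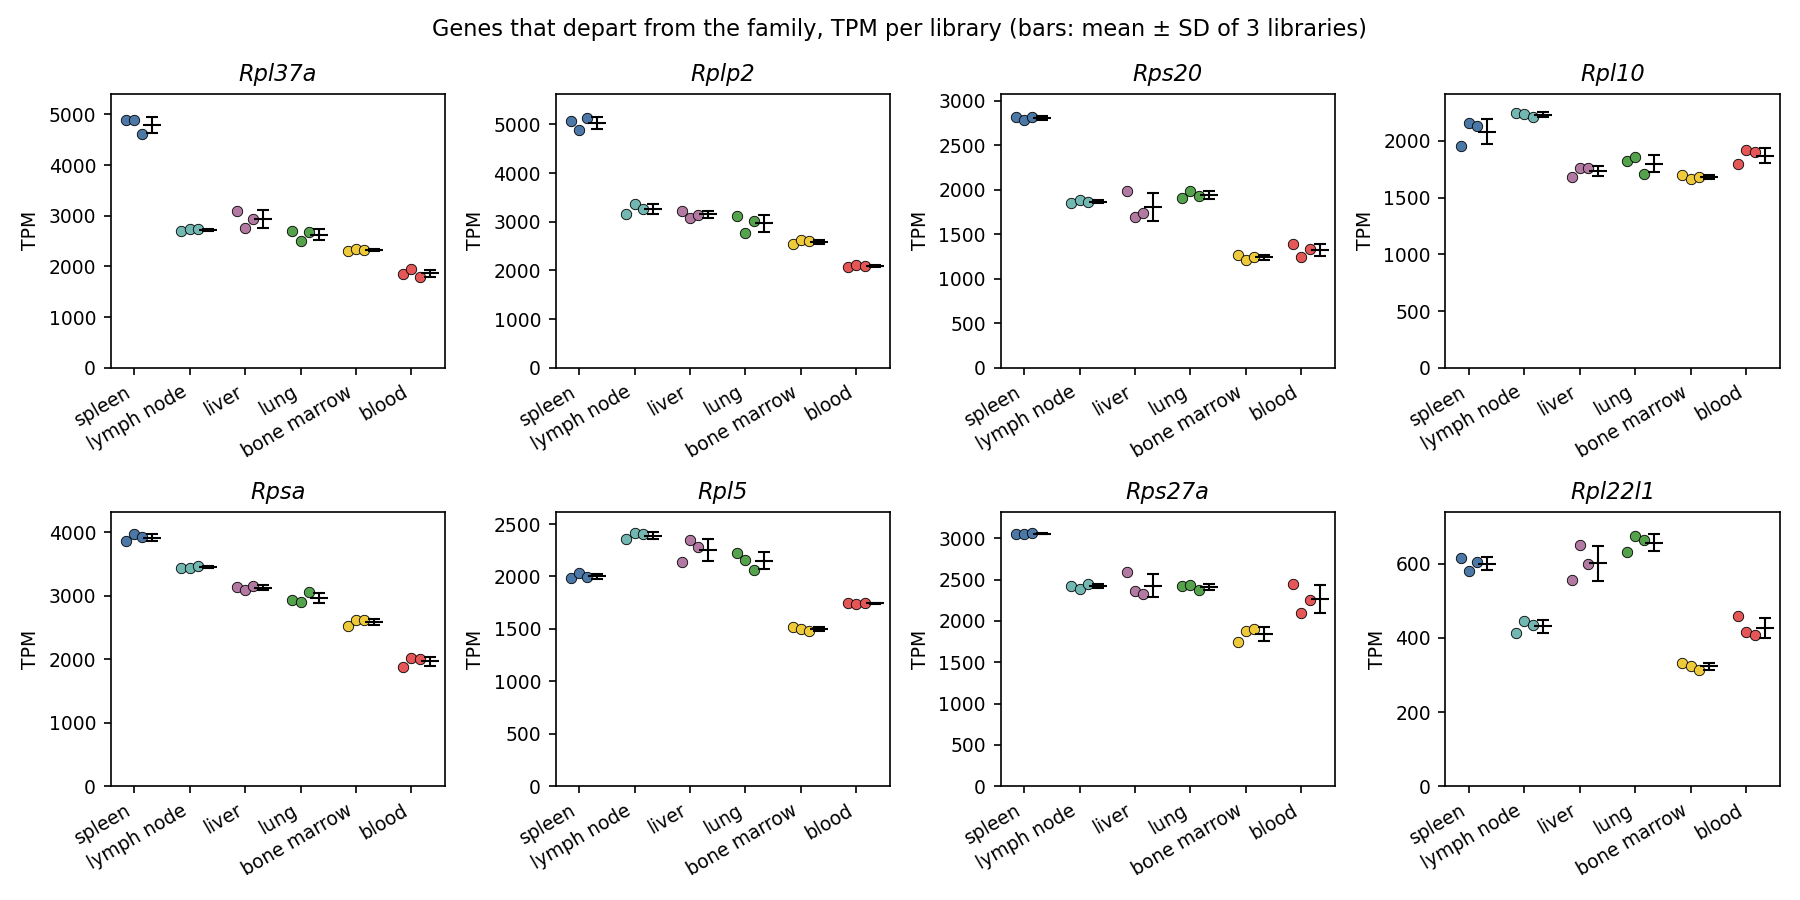
TPM of 8 genes in each of the 18 libraries (axis from 0), 1 point per library, with mean ± SD of the 3 libraries of each organ. Rpl37a, Rplp2 and Rps20 are highest in spleen, Rpl5 is lower in spleen than in lymph node, liver and lung, Rpsa is lowest in blood, and Rpl10 varies least between organs. On this share scale, levels also move with how much of a library other transcripts take.

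The genes of the ribosomal stalk did not move as 1 unit. Rplp0, which anchors the stalk, and Rplp1 and Rplp2, its mobile arms, bring elongation factors to the ribosome. All 3 were lower in blood than in spleen, lymph node, liver and lung as a share of the library, and Rplp1 and Rplp2 also than in bone marrow. That scale matters here: after scaling to T cell genes all 3 were higher than in lymph node, bone marrow and liver, 1 (Rplp0) was higher than in lung, and against spleen Rplp0 was higher (0.18) while Rplp1 (−0.09) and Rplp2 (−0.38) stayed lower. Rplp0 read 2733, 2702 and 2707 TPM in lymph node and 2356, 2508 and 2624 in spleen, and lymph node was its highest site. Relative to the family it was 0.33 ± 0.03 in lymph node (limma, adjusted p = 1.08e-06) and near the family in blood (0.003 ± 0.03, adjusted p = 0.946). Rplp1 and Rplp2 were below the family in blood, at −0.22 ± 0.03 (adjusted p = 1.49e-05) and −0.23 ± 0.03 (adjusted p = 6.57e-06). In spleen Rplp2 was far above the family and Rplp1 near it (0.08 ± 0.03, adjusted p = 0.0416, a call kept in 12 of 24 alternatives). The difference between the 3 genes was not tested directly.

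The 5S rRNA partners Rpl5 and Rpl11, which together also bind the p53 regulator Mdm2, differed in a similar way. Rpl11 read 2892, 3025 and 2873 TPM in spleen and 1484, 1579 and 1502 TPM in blood, and relative to the family was 0.16 ± 0.04 in spleen (limma, adjusted p = 0.0027) and −0.11 ± 0.04 in blood (adjusted p = 0.0285). Both calls were lost without the trend and robust options, and the blood call also without blood replicate 1 or 3. Rpl5 had the opposite sign in both sites. The 8 proteins around the exit of the nascent chain, Rpl17, Rpl19, Rpl22, Rpl23a, Rpl26, Rpl31, Rpl35 and Rpl39, were lower in blood as a share than in spleen, liver and lung in 8 of 8, and than in lymph node in 7 of 8, and on the T cell scale they were higher in 5, 8, 7 and 8 of 8, with 1 lower than in spleen. Against bone marrow 5 were lower and 1, Rpl39, was higher, and on the T cell scale 0 were lower and 8 higher. On that scale 50, 83, 66 and 83 of the 83 members were higher than in spleen, liver, lung and lymph node, and 74 than in bone marrow. As a share, 15.3%, 16.1%, 17.3% and 21% of all genes were lower in blood in the same order, and 18.8% than in bone marrow. The shares of all genes on the T cell scale are given above. The counts followed those of the family, so nothing particular to these 8 is read from them. Rpl39, a very small protein that lines the exit tunnel, read 1412, 1237 and 1168 TPM in lung, 1243, 1340.4 and 1384 in liver, 1043, 1131 and 1038 in lymph node and 833, 792 and 814 in bone marrow. Relative to the family it was 0.27 ± 0.06 in lung (adjusted p = 0.00156) and 0.28 ± 0.06 in liver (adjusted p = 0.00165), a call lost with library weights. It was −0.28 ± 0.06 in lymph node (adjusted p = 0.00198) and −0.21 ± 0.06 in bone marrow (adjusted p = 0.00764). Rpl23a, a docking site for targeting factors at the exit, was among the genes that did not leave the family (adjusted p = 0.121).

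Rpl22l1 had the widest range of site means relative to the family, 0.82 on the log2 scale, among the members above 500 TPM, a set that leaves out the 4 lowest. It is the paralog of Rpl22, a large subunit protein outside the catalytic core whose loss impairs αβ T cell development in mice. It lies at chr3:28805436-28807424 on the plus strand of GRCm38. Its libraries read 632, 675 and 664 TPM in lung, 555, 651 and 598 in liver, 616.5, 580.0 and 605 in spleen, 413, 447 and 434 in lymph node, 459, 415 and 408 in blood and 333, 324 and 315 in bone marrow. Lymph node and blood overlapped, liver overlapped both spleen and lung, and bone marrow was below all other libraries. Relative to the family it was 0.51 ± 0.06 in lung (limma, adjusted p = 2.3e-06), 0.29 ± 0.06 in liver (adjusted p = 0.000813), −0.42 ± 0.06 in bone marrow (adjusted p = 1.76e-05) and −0.47 ± 0.06 in lymph node (adjusted p = 9.68e-06). Rpl22 itself read 2193, 2222 and 2234 TPM in spleen and 1390.3, 1335 and 1446 in lung. The ratio of Rpl22l1 to Rpl22, which no scaling of a library changes, was 0.473 ± 0.029 in lung, 0.387 ± 0.024 in blood and 0.361 ± 0.036 in liver. It was 0.271 ± 0.010 in spleen, 0.266 ± 0.007 in bone marrow and 0.26 ± 0.008 in lymph node. The lung ratios, from 0.454 to 0.506, lay above all others. Those of blood (0.359 to 0.402) and liver (0.324 to 0.397) overlapped, and those of spleen, bone marrow and lymph node (0.251 to 0.281) lay below all 3. With 3 libraries against 3, an exact permutation test of such a ratio cannot go below p = 0.1, and none was run. RNA of other cells still enters this ratio. The myeloid, platelet, erythroid and lung epithelium totals given above differed between these sites, and their part in the ratio was not tested.

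**Figure D5:**
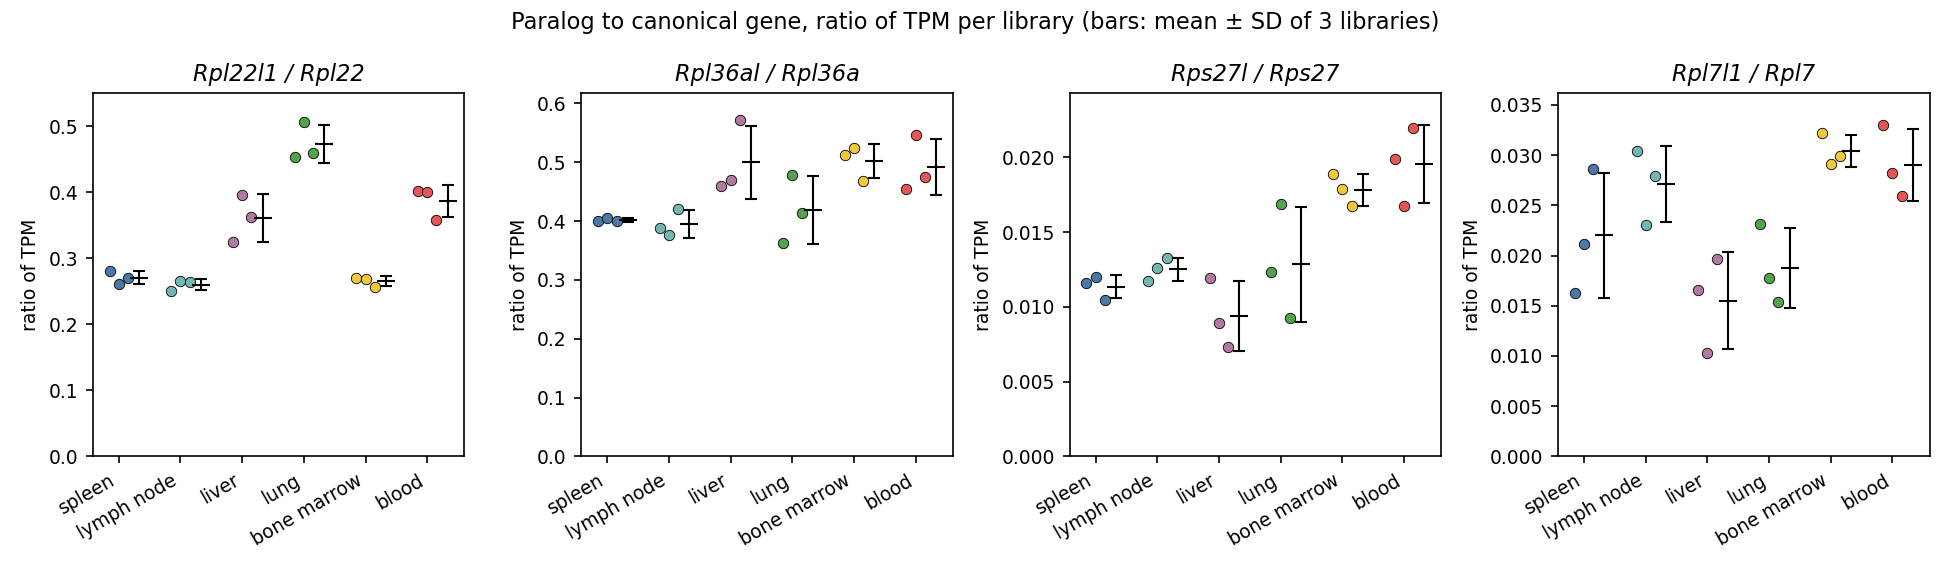
Ratio of the TPM of a paralog to that of its canonical gene in each library (axis from 0, 1 point per library, mean ± SD of 3 libraries). Rpl22l1 to Rpl22 separates lung (0.454 to 0.506), blood with liver (0.324 to 0.402) and the other 3 organs (0.251 to 0.281), while the other 3 ratios overlap between most organs. The part of other cells in these ratios was not tested.

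The other paralog pairs showed smaller or noisier differences. Rpl36al to Rpl36a ranged from 0.395 ± 0.023 in lymph node to 0.502 ± 0.029 in bone marrow, with lung libraries spread from 0.362 to 0.478. Rps27l, a paralog of Rps27 known as a p53 target, was at 0.020 ± 0.003 of Rps27 in blood, 0.018 ± 0.001 in bone marrow and 0.009 ± 0.002 in liver. Relative to the family Rps27l was 0.62 ± 0.15 in blood (limma, adjusted p = 0.00336) and 0.54 ± 0.15 in bone marrow (adjusted p = 0.00916). Rpl7l1, a paralog of Rpl7, was at 0.029 ± 0.004 of Rpl7 in blood, 0.030 ± 0.002 in bone marrow and 0.016 ± 0.005 in liver, and the liver libraries ran from 0.010 to 0.020. The retrogene Rps27rt stayed between 0.017 ± 0.002 and 0.020 ± 0.001 of Rps27. Its sequence and those of many processed pseudogenes resemble the parent gene, so how reads were divided between such copies affects these low ratios. Pseudogenes of the family together took 0.164% to 0.265% of TPM, small beside the family's share. The paralogs Rpl3l, Rpl10l and Rpl39l are those that missed the 10 TPM limit.

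Genes outside the rule that belong to the same ribosome or pathway were taken from lists. Fau, which encodes a ribosomal protein fused to a ubiquitin-like protein, was lower in blood than in spleen (−0.60, limma, adjusted p = 7.09e-08), lymph node (−0.15, adjusted p = 0.0198) and liver (−0.23, adjusted p = 0.00124) as a share, and turned to 0.28, 0.93 and 0.62 on the T cell scale. Rack1, a scaffold on the small subunit, was lower than in spleen (−0.75, adjusted p = 4.99e-07), lymph node (−0.57), liver (−0.42) and lung (−0.27), with values of 0.14, 0.51, 0.42 and 0.32 on the T cell scale. Of 23 other TOP mRNAs, mostly translation factors, 17 were lower and 2 higher than in spleen, 16 and 2 than in lymph node, 17 and 0 than in liver, 15 and 1 than in lung, and 10 and 4 than in bone marrow. Of all genes tested, 15.3% were lower and 20.1% higher than in spleen, and 21% and 16.4% than in lymph node. The same shares were 16.1% and 23.3% for liver, 17.3% and 26.4% for lung, and 18.8% and 13% for bone marrow. The medians of the 23 mRNAs, from −0.43 to −0.16, also turned positive on the T cell scale, from 0.28 to 0.65. Cct6a, a chaperonin subunit, read 75.5, 92.8 and 78.7 TPM in blood and 202, 192 and 178 in spleen (−1.20, adjusted p = 1.92e-07), and stayed lower on the T cell scale, at −0.32. Tpt1, one of the most abundant TOP mRNAs, was higher in blood than in bone marrow (0.56 ± 0.05, adjusted p = 2.58e-07) and spleen (0.15 ± 0.05, adjusted p = 0.0266). It was lower than in liver (−0.23 ± 0.05, adjusted p = 0.00126) and lung (−0.34 ± 0.05, adjusted p = 3.21e-05) and not called against lymph node (0.09), but on the T cell scale it was higher in blood than in all 5 organs, from 0.25 to 1.17.

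Ribosome biogenesis factors, which build rather than form the ribosome, followed the family in some comparisons only. Of 30, 18 were lower and 0 higher than in spleen (−0.56 as the median), 25 and 0 than in lymph node (−0.77), 11 and 0 than in bone marrow (−0.30), 13 and 2 than in lung (−0.33), and 3 and 4 than in liver (0.03). Of all genes tested, 15.3% were lower and 20.1% higher than in spleen, and 21% and 16.4% than in lymph node. The same shares were 18.8% and 13% for bone marrow, 17.3% and 26.4% for lung, and 16.1% and 23.3% for liver. After T cell scaling the medians of the 30 factors were 0.31, 0.28, 0.13, 0.23 and 0.83. Ncl, nucleolin of the nucleolus, read 214.5, 187 and 196 TPM in blood and 405, 361 and 379 TPM in lung (−0.94 ± 0.06, adjusted p = 5.61e-09), and remained lower than in lung on the T cell scale, at −0.35. Mrto4, an assembly factor of the stalk site, changed by −1.20 ± 0.15 against spleen (adjusted p = 8e-06), and on the T cell scale its value of −0.34 was not called. Proteins of the mitochondrial ribosome, which is a separate machine, were lower in 29 of 78 against spleen, 30 against lymph node, 19 against bone marrow, 10 against liver and 9 against lung, with 1, 1, 1, 8 and 9 higher. As percentages of the 78, the lower calls were 37.2%, 38.5%, 24.4%, 12.8% and 11.5%, of which those for liver and lung lay under the 16.1% and 17.3% of all genes. Their medians were −0.53, −0.47, −0.37, 0.15 and −0.06 and turned to 0.33, 0.59, 0.06, 0.95 and 0.49 on the T cell scale.

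Genes that control ribosome synthesis through mTORC1, Larp1 and Myc had no common direction as a share. Of 25, blood was higher in 8 and lower in 5 against spleen, 5 and 9 against lymph node, 4 and 5 against bone marrow, 10 and 3 against liver, and 5 and 8 against lung, with medians between −0.16 and 0.10. Of all genes tested, 20.1% were higher and 15.3% lower against spleen, and 16.4% and 21% against lymph node. The same shares were 13% and 18.8% for bone marrow, 23.3% and 16.1% for liver, and 26.4% and 17.3% for lung. The T cell scale shifted the medians of the 25 genes to between 0.46 and 0.96. Eif4ebp1, the translation repressor that mTORC1 switches off, read 65.6, 67.3 and 68.9 TPM in blood, 35, 31.3 and 31.2 in bone marrow and at most 13.5 in the 12 other libraries. Its log2 fold change ran from 1.03 ± 0.22 against bone marrow (limma, adjusted p = 0.00194) to 3.37 ± 0.22 against liver (adjusted p = 4.75e-09), and was larger on the T cell scale. Ddit4, which inhibits mTORC1 under stress, read 37.3, 37.4 and 40.9 TPM in blood, 84.7, 85.4 and 76.5 in bone marrow, 110.2, 128 and 128 in spleen and 191, 210.2 and 205 in liver. It was lower in blood than in every organ, with changes from −2.36 ± 0.08 against liver (adjusted p = 1.71e-12) to −1.07 ± 0.08 against bone marrow (adjusted p = 4.02e-08), and stayed lower on the T cell scale, from −1.53 to −0.64. Mxd1, a Myc antagonist, was higher in blood than in spleen by 2.44 ± 0.11 (adjusted p = 8.97e-11) and lower than in lung (−0.61 ± 0.11, adjusted p = 0.000317), the latter not called on the T cell scale. Its libraries read 136.1, 142.1 and 140.2 TPM in blood and 100.6, 101.1 and 97.0 in bone marrow. Lung was highest, at 205.2, 224.4 and 211.0 TPM, with a myeloid total of at most 1880 TPM. Mxd1 is also expressed by myeloid cells, whose genes were high in the blood and bone marrow libraries, as Eif4ebp1 was, and the part of those cells in these values was not tested.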

How the data were processed

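The deposited tables give TPM for each gene in each of 18 libraries. Per the submitters' processing notes, STAR and RSEM were used with mm10, and their versions and annotation are not given in the sources used here. Per the labels' protocols, total RNA was purified and directional libraries were made. Of 55487 gene IDs, 55141 matched a symbol in GENCODE M21, whose GRCm38 assembly underlies mm10 and gave coordinates, transcript lengths and gene types. Promoter windows came from RefSeq (GRCm38.p6). The members and all lists were chosen with earlier results of these data known.

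TPM were analysed as log2(TPM + 1) with limma 3.58.1 (R 4.3.3), in 1 linear model over 16694 genes whose mean reached 1 TPM in 1 or more sites, with empirical Bayes moderation (trend and robust) and Benjamini-Hochberg adjustment over all of them. Calls are at an adjusted p under 0.05. All 83 members passed that filter. Fold changes are on the log2(TPM + 1) scale. In the second fit the library's mean over the members was subtracted first. The tests were checked on simulated data. Members were named by rule: the 5 highest and 5 lowest, the 2 extremes of each blood comparison, the 10 widest relative ranges, paralog pairs, structural groups, the genes beside the 10 TPM limit, and the 2 largest changes per list in each direction. A few genes that the rule names are not reported here. Other genes, such as those called against the family's direction, were named after their values were seen. No 2 tables were identical. Alternatives were another pseudocount, no low filter, library weights, plain empirical Bayes, 3 scalings, the replicate block, a 50 TPM limit, the median as family level, pseudogenes added, and each library left out.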

Additional observations from a re-analysis of the deposited data

How the results depend on the processing

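Scaling to the 20 T cell genes reversed the family's direction in all 5 blood comparisons, to medians of 0.16 against spleen, 0.50 against lymph node, 0.33 against bone marrow, 0.40 against liver and 0.21 against lung, with 14, 0, 0, 0 and 0 members lower in blood. On that scale Rps2 (0.24) and Rpl12 (0.24) against lymph node, and Rpl41 (0.12) and Rpsa (0.18) against liver, also reversed. The sign also turned for Rpl22l1 against lymph node (1.07), which was not called as a share. It turned for Rps12 against bone marrow (0.04) too, which was not called on the T cell scale. The construction moves every gene by the same factor per library. Scaling to the upper quartile gave medians of −0.82, −0.54, −0.03, −0.56 and −0.49 in the same order and 19 members lower than in bone marrow. Removing abundant classes gave −0.62, −0.46, −0.08, −0.36 and −0.30, and shares of 29.2% in spleen, 25.5% in lymph node, 23.9% in liver, 23.1% in lung, 19.7% in bone marrow and 18.6% in blood. Adding pseudogenes gave 17.7% in bone marrow, 24.4% in lymph node and 27.6% in spleen. Without trend and robust moderation 42 members differed relative to the family and 18 were lower than in bone marrow. The cause of these last changes was not tested. Counts of members in this section show only how the calls move between settings and are not set beside all genes.

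Leaving out single libraries gave medians in the same order from −0.74 to −0.72, −0.59 to −0.57, −0.12 to −0.11, −0.47 to −0.40 and −0.38 to −0.36. The values of −0.40 and −0.47 came without liver replicates 1 and 2. Members lower in blood then numbered 80 to 81, 77 to 79, 30 to 45, 74 to 78 and 74 to 76. With the replicate block, members lower in blood numbered 80, 77, 37, 77 and 75, which changed no median. Deviations of libraries sharing a number correlated between −0.034 and 0.03 over 45 pairs, so the numbers were not taken to pair samples. The other pseudocount, the lack of a low filter and the 50 TPM limit kept the family's direction and left the counts of members lower in blood within 1.5 times. The median as family level applies only to the fit relative to the family, where the family's own direction is subtracted. TPM hold no depth, so no limit of detection can be given.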
